A study of Mus musculus with 13 samples.

Results

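Granule genes of neutrophils and myeloid progenitors were followed in 13 RNA libraries of sorted mouse haematopoietic stem cells (HSCs). The 10 genes were chosen by symbol, from 43280 symbols in each library: Ngp, Camp, Ltf, Lcn2, S100a8, S100a9, Lyz2, Elane, Mpo and Prtn3. All 10 passed the filter on low counts, as did 17125 genes in all. The cells came from untreated C57BL/6 Jrj mice. Marrow was enriched for Kit, and live SLAM-HSCs (lineage-negative, Kit+, Sca1+, CD48-, CD150+) were sorted and divided by mitochondrial membrane potential (MMP). There were 3 libraries of MMP low and 4 of MMP high HSCs from young mice of 8 to 12 weeks, and 3 of MMP low and 3 of MMP high HSCs from old mice of over 18 months. The labels name no dye or gate for MMP, and they do not say whether replicates are separate animals or pools of animals, so p-values measure only the spread between these samples, which may be technical.

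Neutrophils fill their granules in waves. Elane (neutrophil elastase), Mpo (myeloperoxidase) and Prtn3 (proteinase 3) are made early, in promyelocytes, and are packed into azurophil granules. Ngp (neutrophilic granule protein), Camp (cathelicidin), Ltf (lactoferrin) and Lcn2 (lipocalin 2) are made later, in myelocytes, and go into specific granules. S100a8 and S100a9 form calprotectin, the calcium-binding protein of the neutrophil cytosol, and Lyz2 is a lysozyme that monocytes and macrophages also make. These 7 genes are called late members here. Early granule genes are also transcribed in granulocyte-monocyte progenitors. The sort gate excludes lineage-positive cells.

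The members lie at these places in the annotation of GRCm38 (GENCODE M21). Elane (chr10:79886247-79888215, plus strand) and Prtn3 (chr10:79874476-79883174, plus strand) are neighbours, with 3072 bases between them. S100a8 (chr3:90668978-90670035, plus strand) and S100a9 (chr3:90692632-90695721, minus strand) are 22596 bases apart. Mpo lies at chr11:87793581-87804413 (plus strand) and Lyz2 at chr10:117277331-117282321 (minus strand). Ngp (chr9:110419747-110423012, plus strand), Camp (chr9:109847379-109849617, minus strand) and Ltf (chr9:111019271-111042767, plus strand) share chromosome 9, and Lcn2 lies at chr2:32384633-32388252 (minus strand).

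Promoter sequence of the members is given as a description, and its part in their levels was not tested. The 250 bases before the start of each gene (RefSeq, GRCm38.p6, all 10 members matched) were searched on both strands for the letters GAGGAAGT, which resemble the binding motif of PU.1, a factor of myeloid genes. These letters were chosen after the sequences had been seen, and they overlap the shorter GAGGAA. They were present in all 3 early members on the gene's own strand and, among the 7 late members, in S100a8 alone, on the opposite strand. Of 32851 promoters of that length, 2.44% held them. The shorter GAGGAA, in 23.3% of promoters, did not divide the waves: it was also in the late members Ltf, Lcn2 and S100a8. The motif is in capitals, with 20 bases on each side. Its first base lay 85 bases before the RefSeq start in Elane, 224 in Mpo, 95 in Prtn3 and 172 in S100a8. The RefSeq start is not always that of the GENCODE span given above, and it differs in Elane and Mpo. Of the 48 bases of a window, 8 in Elane and 7 in Mpo lie in GENCODE exons. The windows lie on the plus strand at chr10:79886207-79886254 (Elane), chr11:87793540-87793587 (Mpo), chr10:79879552-79879599 (Prtn3) and chr3:90668879-90668926 (S100a8). The Prtn3 window lies inside the annotated span of that gene, upstream of the start RefSeq gives it and outside its exons.
Elane: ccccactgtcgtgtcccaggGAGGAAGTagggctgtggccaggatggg
Mpo: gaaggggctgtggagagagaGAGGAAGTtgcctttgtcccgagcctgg
Prtn3: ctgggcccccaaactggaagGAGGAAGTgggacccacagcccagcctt
S100a8: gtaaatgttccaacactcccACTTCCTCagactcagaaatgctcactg

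The letters TTGCNNAA, which resemble the motif of C/EBP factors (regulators of granulocyte genes), were searched in the same way. They were in the windows of 4 late members (Ngp, Ltf, Lcn2 and S100a9) and of no early member, against 9.56% of all promoters. Camp, S100a8 and Lyz2 lacked them too, and at that share absence from the few early members shows no difference between the waves. The letters AACNG, searched as a Myb motif, were in every member and in 74.2% of promoters. The first base of the TTGCNNAA match lay 138 bases before the RefSeq start in Ngp, 75 in Ltf, 236 in S100a9 and 216 in Lcn2. Ngp had a further match on the opposite strand, 11 bases before the start. The window of that match and the window of Lcn2 lie wholly within annotated exons. The windows of Ngp (first match), Ltf and S100a9 follow, at chr9:110419650-110419697 (Ngp, plus strand), chr9:111019197-111019244 (Ltf, plus strand) and chr3:90695930-90695971 (S100a9, minus strand). In Ltf the motif is on the opposite strand. A match to letters is a description of the sequence, and no binding was measured here.
Ngp: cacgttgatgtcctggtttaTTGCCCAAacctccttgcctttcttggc
Ltf: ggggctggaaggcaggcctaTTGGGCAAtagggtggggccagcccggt
S100a9: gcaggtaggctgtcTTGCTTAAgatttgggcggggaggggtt

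The libraries held 8537834 to 10574730 counts each. In CPM (counts after scaling each library to the same total), the genes of the sort gate stood at 458 to 828 (Kit), 22.6 to 179.6 (Ly6a, Sca1), 26.1 to 105 (Slamf1, CD150) and 1.29 to 19.4 (Cd48). A list of 17 HSC markers and sort gate genes summed to between 1868 and 3349 CPM. In MMP high HSCs 4 of them were called lower in young mice and 7 in old mice by edgeR. Of all genes tested, 0.993% and 3.66% were called in these contrasts, in either direction. By their names 5 libraries belong to a smaller and 8 to a larger series, of unstated meaning, and each group has libraries in both. Young MMP low 1 and Young MMP high 4 are called doubted libraries: the former had 127 CPM of the nuclear RNA Malat1, against at least 651 in the others, and the latter stood apart in the members.

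The 10 members together took from 0.192% to 4.85% of all counts. In young MMP low HSCs the share was 4.23%, 2.78% and 0.750% in replicates 1, 2 and 3, and in old MMP low HSCs it was 4.85%, 0.561% and 3.04%. In young MMP high HSCs it was 1.45%, 1.09%, 4.11% and 0.192% in replicates 1 to 4, and in old MMP high HSCs 2.34%, 0.502% and 1.49%. Each of the 4 groups thus held a library at or under 0.750% of counts, and the groups overlapped. In Young MMP high 4 the 95% Wilson score interval was 0.189% to 0.194%. It covers counting error only, since PCR copies were not told apart from separate molecules, and counting error was small beside the spread between libraries. In RNA of sorted pools, fewer cells of a type and less RNA per cell cannot be told apart.

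**Figure D1:**
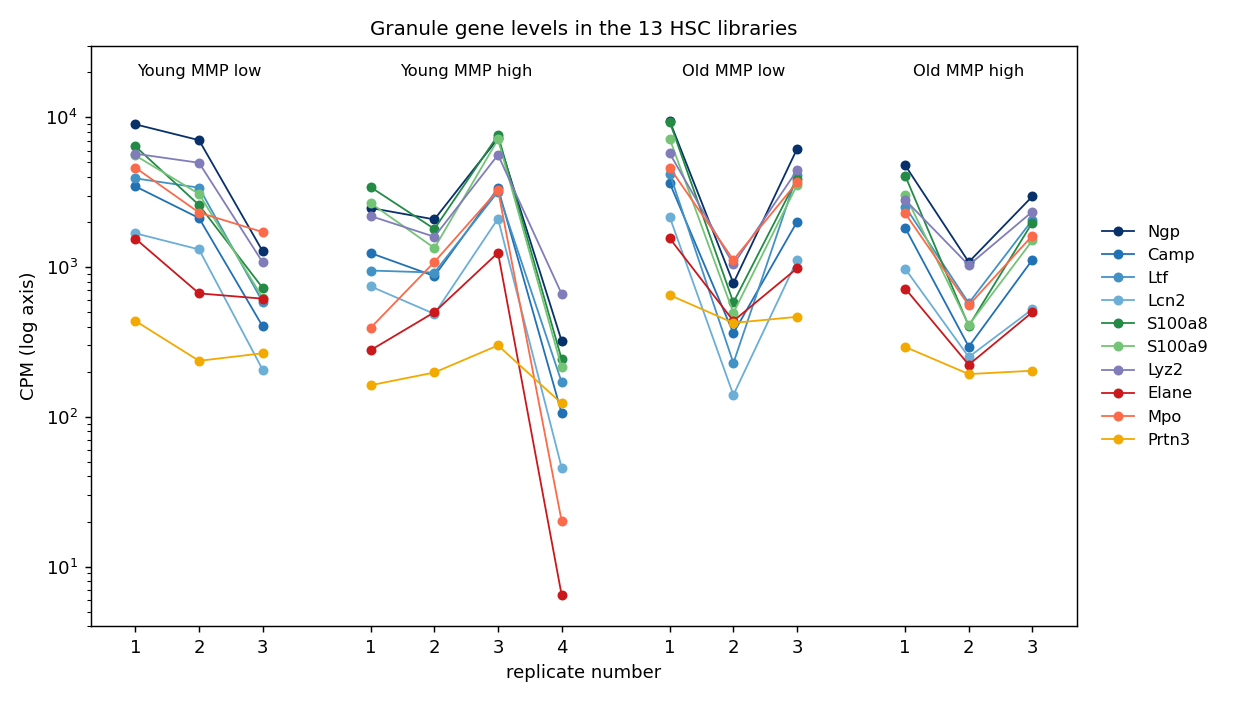
Level of each member in each library, in CPM on a log axis, with the replicates of each group side by side; lines join values of 1 gene within a group to guide the eye and give no order. All 10 members were lowest in Young MMP high 4, where Elane and Mpo lay below the other members, and Prtn3 moved least between libraries.

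Late members formed the larger part. Ngp ranged from 322 CPM in Young MMP high 4 to 9423 CPM in Old MMP low 1, a 29.3-fold span. Within groups it was 8983, 7046 and 1278 CPM in young MMP low HSCs and 2483, 2083, 7238 and 322 CPM in young MMP high HSCs. It was 9423, 781 and 6152 CPM in old MMP low HSCs and 4788, 1081 and 2971 CPM in old MMP high HSCs. One library of each group was therefore low in Ngp, and no group was uniformly high. The span was 24.7-fold for Ltf, 34.3-fold for Camp and 47.0-fold for Lcn2, which binds bacterial siderophores.

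S100a8 went from 243 to 9327 CPM (38.4-fold) and S100a9 from 215 to 7177 CPM (33.4-fold). S100a8 was 6401, 2598 and 727 CPM in young MMP low HSCs and 3417, 1799, 7598 and 243 CPM in young MMP high HSCs. It was 9327, 581 and 3905 CPM in old MMP low HSCs and 4084, 405 and 1986 CPM in old MMP high HSCs. The 2 calprotectin genes kept nearly 1 ratio to each other: S100a8 to S100a9 lay between 0.843 and 1.35 in all 13 libraries. Lyz2 had the narrowest span of the late members, 663 to 5741 CPM (8.66-fold). Of its 50-base stretches, 15.4% also occur in its neighbour Lyz1, so some of its reads could not be assigned to 1 gene with certainty.

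Early members split into a pair and a single gene. Elane was 1549, 668 and 616 CPM in young MMP low HSCs, and 279, 499.7, 1248 and 6.47 CPM in young MMP high HSCs. It was 1556, 437 and 981 CPM in old MMP low HSCs in replicates 1, 2 and 3. In old MMP high HSCs it took 0.0720% and 0.0223% of counts in replicates 1 and 2 and stood at 500.1 CPM in replicate 3. The span was 240-fold, and the lowest library, Young MMP high 4, stood far under the next lowest, Old MMP high 2. Mpo went from 20.2 CPM in the same library to 4615 CPM in Young MMP low 1, a 229-fold span. Of the 50-base stretches of Mpo, 12.0% also occur in Gm11505, an antisense gene annotated inside it, and the strand setting of the counting is not given, so reads of the pair cannot be told apart. Gm11505 had 0.315 to 0.345 counts for each count of Mpo in every library.

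Prtn3 behaved differently from the other early members. It was 437, 237 and 266 CPM in young MMP low HSCs and 163, 198, 300.2 and 123 CPM in young MMP high HSCs. It was 651, 424 and 466 CPM in old MMP low HSCs and 293, 193 and 203 CPM in old MMP high HSCs. Its span was 5.29-fold, and 3 of its 4 highest values were those of old MMP low HSCs. In Young MMP high 4 Prtn3 still had 1121 counts, where Elane had 59 and Mpo 184.

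Levels can be set between genes only per length. Per kilobase of exon, the median over libraries was highest for S100a9 (5120 CPM per kb) and S100a8 (3743), followed by Ngp (2431), Lyz2 (1784) and Camp (1636). Elane (626 CPM per kb), Ltf (599) and Mpo (501) lay in the middle, and Lcn2 (283) and Prtn3 (154) were lowest. The length used was that of all annotated exons of a gene together: 2623 bases for Lcn2, 1732 for Prtn3 and 694 for S100a8. Their longest coding transcripts have 915, 1025 and 486 bases, so the order depends on the choice of length. The range of each gene over libraries was wider than the gaps between neighbours in this order.

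Scatter within groups was measured as the pooled SD of log2 CPM around the group means. It was 2.05 for Elane and 2.00 for Mpo, between 1.70 and 1.94 for the 4 specific granule and 2 calprotectin genes, and 1.24 for Lyz2. The median over all genes tested was 0.463, and over the 424 genes at least as abundant as the least abundant member it was 0.234. Elane lay above 99.5% of those abundant genes and Ngp above 96.9%. The scatter of Prtn3 was 0.482, close to the median of all genes and above 84.0% of abundant ones.

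The late members took 0.177% to 4.17% of counts and the early members 0.0150% to 0.681%. The number of late counts for each early count gives their balance. It was 5.41, 7.62 and 1.89 in young MMP low HSCs and 6.12, 1.83 and 4.92 in old MMP low HSCs. It was 16.4, 5.11, 7.53 and 11.8 in young MMP high HSCs and 6.08, 4.16 and 5.38 in old MMP high HSCs. The lowest balance, under 2 late counts for each early one, occurred in Young MMP low 3 and Old MMP low 2. These were also libraries with few late counts, 0.490% and 0.363% of the total. The highest, 16.4, occurred in Young MMP high 1, which was 7th of 13 in late share and 12th in early share.

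**Figure D2:**
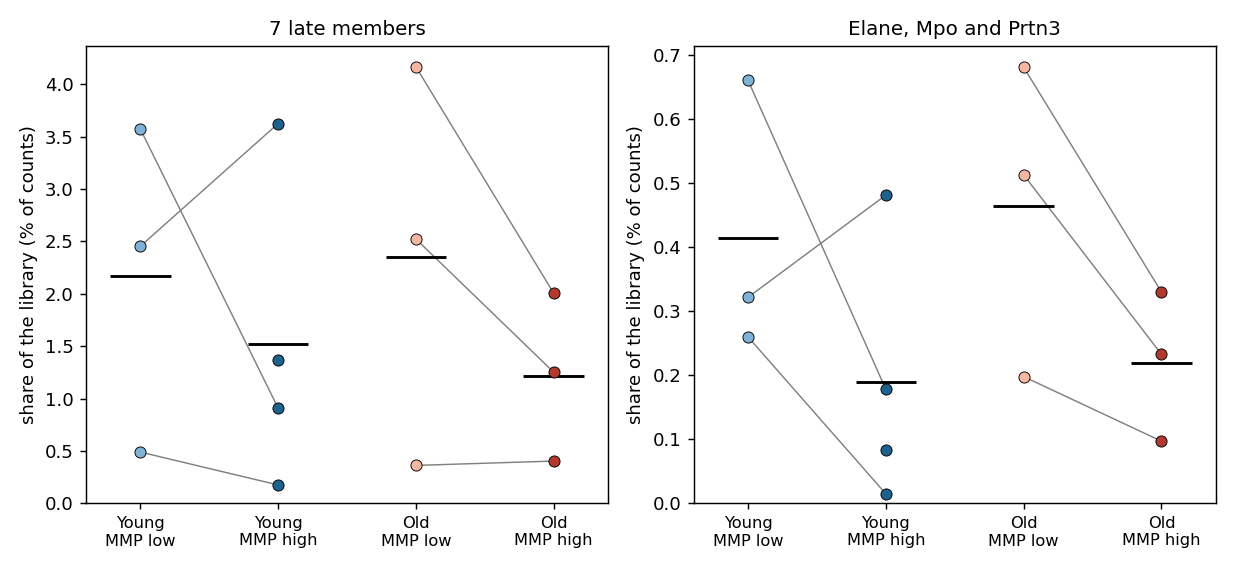
Share of each library's counts (%) taken by the 7 late members and by Elane, Mpo and Prtn3, as points for the 13 libraries with a bar at each group mean; grey lines join MMP low and MMP high libraries with neighbouring names. The old early shares were lower in the MMP high library in each of the 3 pairs, while the groups overlapped in both panels.

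Late members varied together. Over the 13 libraries the 21 pairs of late members had a median Pearson r of 0.970 on log2 CPM (0.910 to 0.994). S100a8 and S100a9 had r = 0.994 (Spearman rho 0.973, permutation test adjusted p = 2.5e-05), and Ngp and Camp had r = 0.987 (rho 0.989, permutation test adjusted p = 2.5e-05). Elane and Mpo formed a similar pair, with r = 0.986 and rho 0.978 (permutation test adjusted p = 2.5e-05). These 3 values of p come from the smallest that 100000 permutations can give. Without the 2 libraries farthest from the median of the first gene, r was 0.989, 0.979 and 0.956, and without Young MMP high 4 it was 0.991, 0.979 and 0.963. P-values were adjusted over the 45 pairs of members.

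Across the 2 waves the relation was looser. The 14 pairs of a late member with Elane or Mpo had a median r of 0.789 (0.749 to 0.843). Ngp and Elane had r = 0.830 and rho 0.907 (permutation test adjusted p = 1.44e-04), and r was 0.852 without the 2 farthest libraries. Within the series of 8 libraries r was 0.795, and within that of 5 it was 0.938 (5 libraries, no test). Ngp stood at 1.79 to 49.7 times the CPM of Elane, and the SD of the log2 ratio was 1.16, against 0.264 for Ngp to Camp and 0.360 for Elane to Mpo. Without Young MMP high 4 the SD for Ngp to Elane was 0.752. The difference between the 2 sets of correlations was not itself tested.

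Prtn3 followed the late members least. The 7 pairs of Prtn3 with a late member had a median r of 0.608 (0.565 to 0.634, highest permutation test adjusted p = 0.0447). In the series of 8 libraries alone these 7 pairs had r from 0.392 to 0.555 and adjusted p from 0.177 to 0.333 by the permutation test. Without Young MMP high 4 they had r from 0.411 to 0.524 and adjusted p from 0.0934 to 0.184 by the same test, so the relation passed the threshold with that library and missed it without. Within the series of 5 libraries, which does not hold Young MMP high 4, r was 0.886 to 0.956 (no test). With Elane, its neighbour on chromosome 10, Prtn3 had r = 0.742 (rho 0.857, permutation test adjusted p = 0.00137), and 0.796 without Young MMP high 4. Elane stood at 0.0526 to 4.16 times the CPM of Prtn3.

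**Figure D3:**
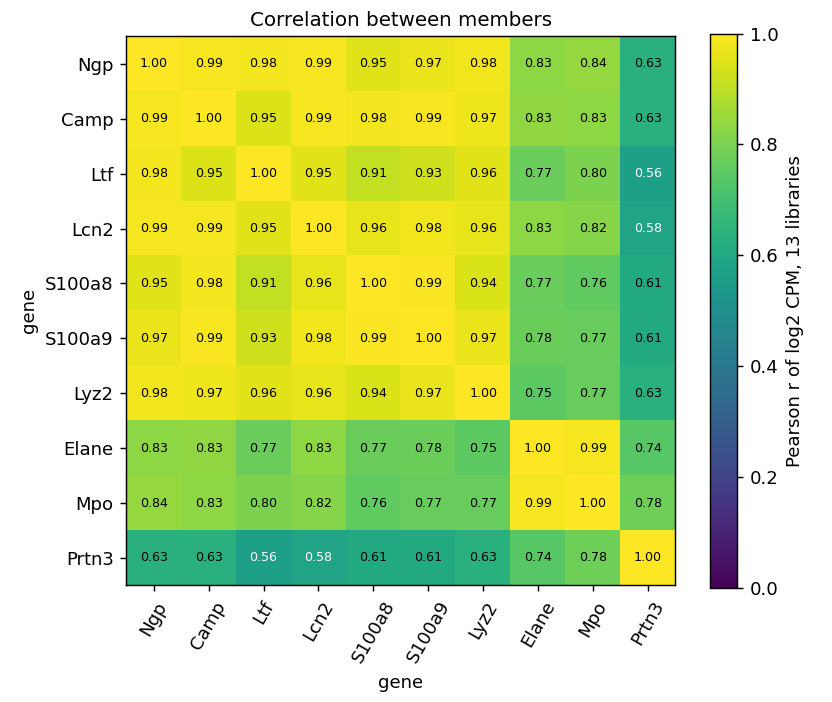
Pearson r of log2 CPM over the 13 libraries for each pair of members, from 0 (dark) to 1 (light). The 7 late members form a block with r of at least 0.910, Elane and Mpo form a second pair, and the row of Prtn3 holds the lowest values.

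**Figure D4:**
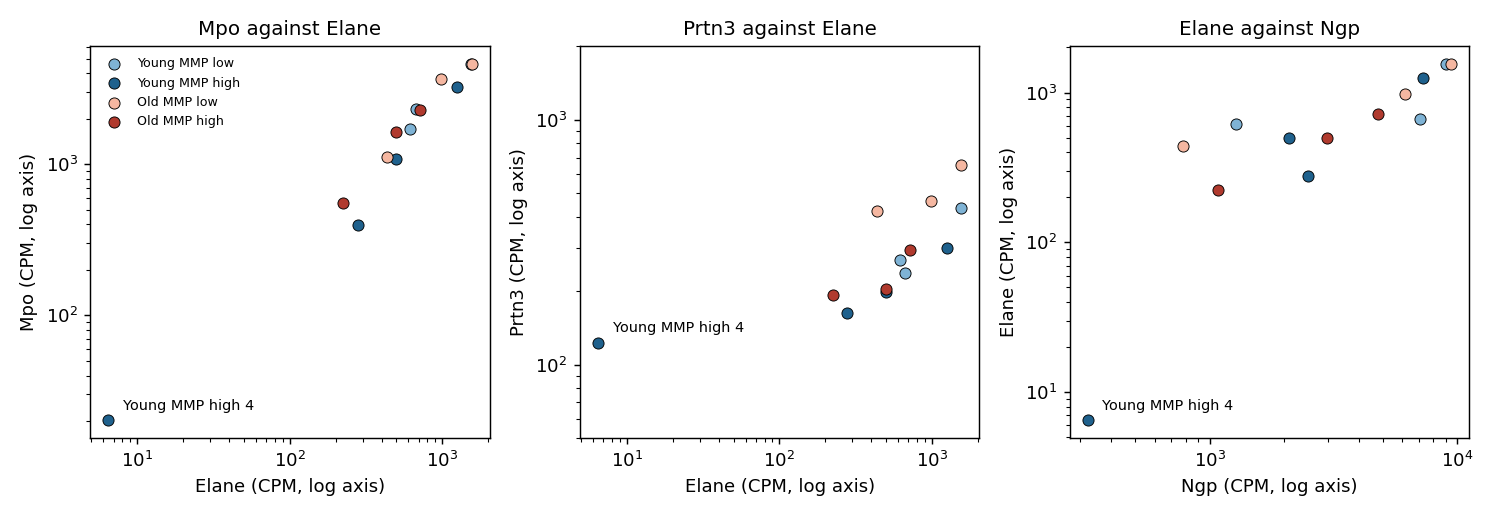
Mpo against Elane, Prtn3 against Elane, and Elane against Ngp in the 13 libraries, in CPM on log axes, coloured by group. Mpo followed Elane down to Young MMP high 4, whereas Prtn3 stayed at 123 CPM there, and the 3 old MMP low libraries lay above the other libraries of like Elane level in the middle panel.

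Other genes named by likeness were those with the highest r with Ngp or with Elane among 12943 genes tested that are not predicted genes. For Ngp they were Chil3 (0.992), Pilra, Chil4, Clec4a2, Clec12a, Cybb, Ncf1 and Igsf6 (0.982), and 92 genes had r over 0.9. Chil3 is a chitinase-like protein of neutrophils and macrophages, and Cybb and Ncf1 are subunits of the phagocyte NADPH oxidase. For Elane they were Ms4a3 (0.991), Cldn15, Ctsg, Alox5, Mrgpra2a, Mrgpra2b, Fcgr3 and G0s2 (0.953), and 32 genes had r over 0.9. Ctsg, cathepsin G, is a further azurophil protease, and Ms4a3 marks granulocyte-monocyte progenitors. Reads of Mrgpra2a and Mrgpra2b, which are near copies, may be shared. All 8 genes most like Elane had a count of 0 in Young MMP high 4, which allows up to 0.329 CPM (3 counts), and none of the 8 most like Ngp did. The choice by likeness favours genes that are low where Elane is low, so this count is a description.

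The MMP comparison asks how HSCs of high and low potential differ at each age. In young HSCs no member passed the test, and 0.993% of the 17125 genes tested did (170 genes; edgeR quasi-likelihood, Benjamini-Hochberg adjusted p under 0.05). With a block for libraries of neighbouring names, 0.683% of genes and no member passed. All 10 members had a fitted fold change below 0, with a median log2 of -0.70 against -0.01 for all genes. Several, S100a8 and S100a9 among them, did not keep that sign under other fits. Mpo was at -1.31 ± 1.14 (SE, n = 4 against 3; edgeR adjusted p = 0.659), Elane at -0.94 ± 1.09 (0.756) and Ngp at -0.97 ± 1.05 (0.734). S100a8 was at -0.05 ± 1.21, although its group means ran the other way, 3242 ± 2891 (SD, n = 3) in MMP low and 3264 ± 3167 CPM (SD, n = 4) in MMP high HSCs. Its fitted value was 0.41 with the replicate number as a block and 0.30 with the series as covariate, and that of S100a9, at -0.17 without either, was 0.0856 and 0.0941.

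Prtn3 had means of 313 ± 108 CPM (SD, n = 3) in young MMP low and 196 ± 75.9 CPM (SD, n = 4) in young MMP high HSCs. Its log2 fold change was -0.72 ± 0.32 (SE; edgeR adjusted p = 0.311), and it was the 1 member with an unadjusted p under 0.05. Without a filter on low counts edgeR called 5 members lower (Ngp, Ltf, Elane, Mpo and Prtn3), where 2.11% of genes were called. No member had young groups that did not overlap, against 12.4% of all genes tested. Without the 2 doubted libraries 7 of the 10 members changed sign, among them Ngp (0.03), Elane (0.18) and S100a8 (1.47). Young MMP low 1 is the highest young MMP low library in each member, and Young MMP high 4 the lowest young MMP high library.

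In old HSCs the members were again all below 0 and again none passed, against 3.66% of genes tested (627 genes; edgeR adjusted p under 0.05). The median log2 of the members was -1.10, against -0.08 for all genes. Fold changes ran from -0.81 in Ltf to -1.29 in S100a9, with SE of 0.88 to 1.31 for all members but Prtn3. Ngp had means of 5452 ± 4363 CPM in MMP low and 2946 ± 1854 CPM in MMP high HSCs (SD, n = 3 each). Elane had means of 991 ± 559 and 481 ± 249 CPM (SD, n = 3 each), a log2 fold change of -1.13 ± 1.19 (SE; edgeR adjusted p = 0.708). For 9 members the difference in means was smaller than the SD among the MMP low libraries. Within the 3 old pairs, 7 members (Camp, S100a8, S100a9, Lyz2, Elane, Mpo and Prtn3) were lower in the MMP high library in all 3, and Ngp, Ltf and Lcn2 in 2. Without a filter on low counts edgeR called all 10 members lower in old MMP high HSCs, where 3.32% of 35834 genes were called.

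Prtn3 was the exception in spread. Its means were 513 ± 120.5 CPM in old MMP low and 229.9 ± 55.1 CPM in old MMP high HSCs (SD, n = 3 each), and all 3 MMP high libraries lay under all 3 MMP low libraries. It was the sole member whose old groups did not overlap, which 26.0% of all genes tested shared. The log2 fold change was -1.23 ± 0.35 (SE; edgeR adjusted p = 0.0682), which missed the threshold. With the replicate number as a block within each age the adjusted p was 0.0568, and with a block for neighbouring names, under which 5.38% of genes passed, it was 0.0367. The same 3 old pairs enter both blocks. The adjusted p was 0.0102 with DESeq2, under which 7.77% of genes passed, and 0.0266 with the old libraries alone (5.32% of genes). It was 0.0415 with the series as covariate (4.84% of genes) and 0.0191 without the doubted libraries (5.6% of genes). Leaving out 1 library moved it between 0.0407 (without Young MMP low 1, where 4.53% of genes passed) and 0.283 (without Old MMP high 3).

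**Figure D5:**
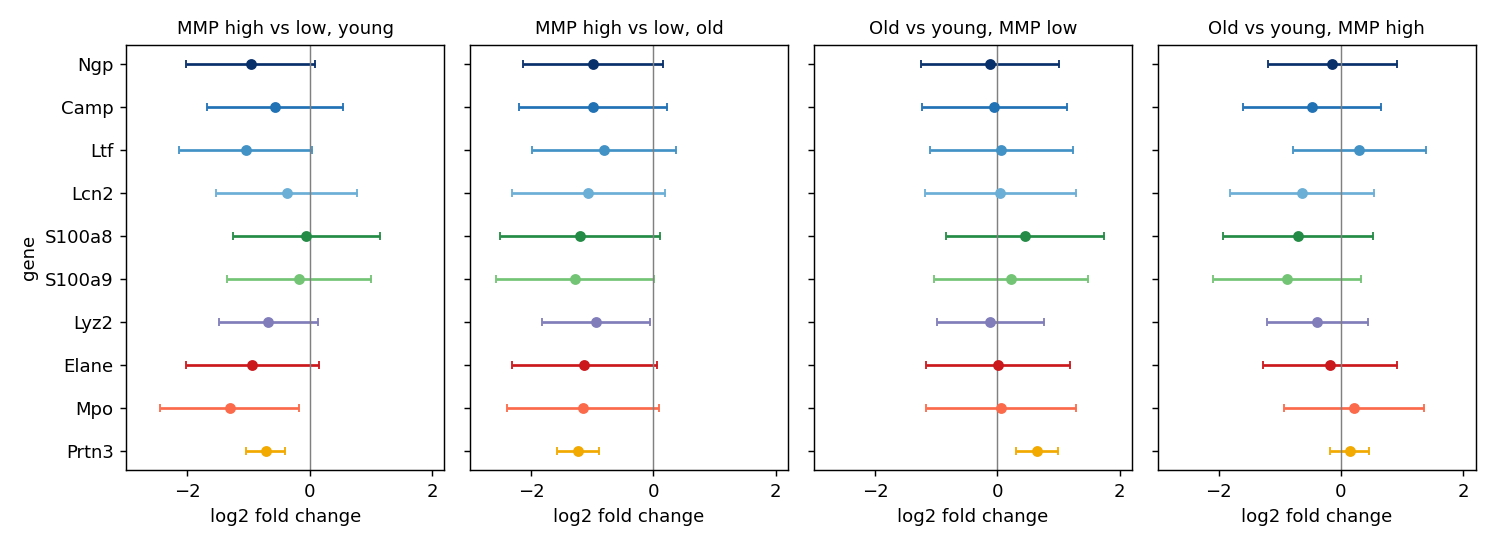
Log2 fold changes of the members with standard errors (bars) from edgeR in the 4 contrasts. All 10 points lie below 0 in both MMP contrasts, and Prtn3 has the shortest bars. In young HSCs S100a8 and S100a9 lie close to 0, and the signs of Ngp, Camp, Lcn2, S100a8, S100a9, Lyz2 and Elane changed under other fits.

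Pairs of MMP low and MMP high libraries with neighbouring names could be formed 6 times. Each member was lower in the MMP high library in 4 or 5 of these 6 pairs, Prtn3 in 5, and the exception for Prtn3 was the pair of Young MMP low 2 (237 CPM) and Young MMP high 3 (300.2 CPM). Ngp levels of the partners had r = 0.771 and rho 0.543 over the 6 pairs (exact permutation test, two-sided, p = 0.0764, adjusted over the 10 members p = 0.139). Without the 2 pairs farthest from the median r was -0.25, so the relation rests on those pairs.

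Sums of markers of some other marrow cells moved with Ngp, and their part in the results was not tested. Ngp had r = 0.930 with the sum of 15 monocyte and macrophage markers, 0.737 with erythroid markers and 0.681 with B cell markers (permutation test adjusted p = 1.50e-04, 0.0185 and 0.0372 over 30 relations), and Spearman's rho was 0.934, 0.764 and 0.676 (permutation test adjusted p = 3.75e-04, 0.0146 and 0.0510, the last of which missed the threshold). Within the series of 8 and of 5 libraries r was 0.929 and 0.863 for monocyte and macrophage markers, 0.911 and 0.380 for erythroid markers, and 0.657 and 0.750 for B cell markers. Without the 2 libraries farthest from the median r was 0.936, 0.677 and 0.759. Elane, for the early members, had r = 0.790, 0.540 and 0.549 with the same sums (permutation test adjusted p = 3.5e-04, 0.124 and 0.158). With Elane, monocyte and macrophage markers alone among these passed the threshold. Single genes differed. Among those tested, r with Ngp ran from -0.16 (Fn1) to 0.93 (Ly6c2) for monocyte and macrophage markers. It ran from -0.42 (Epor) to 0.85 (Slc4a1) for erythroid and from 0.31 (Ms4a1) to 0.91 (Cd79a) for B cell markers. Abundant genes weigh most in a sum: Ly6c2 stood at 303 CPM in Old MMP low 1, where the monocyte and macrophage sum was 604 CPM. The sum of monocyte and macrophage markers was 98.4 to 369.9 CPM in MMP low and 52.1 to 453 CPM in MMP high HSCs of young mice, and 139 to 604 and 73.4 to 231 CPM in those of old mice. Of these 15 genes, 5 had counts in all libraries, and Ccr2, F13a1, C1qa and Cd14 were among those at 0 in some. Erythroid sums reached 17740 CPM (MMP low) and 42210 CPM (MMP high) in young HSCs, and 29720 and 13340 CPM in old ones. B cell sums reached 1001, 589, 2002 and 351 CPM in the same order, and Cd79a and Pax5 were among the markers at 0 in some libraries. The sum of HSC markers had r = -0.24 with Ngp (rho -0.29, permutation test adjusted p = 0.532). The sums of the T and NK cell, megakaryocyte, eosinophil and basophil, and stromal lists also missed the threshold with Ngp, with adjusted p from 0.155 to 0.550 by the permutation test.

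Further granule genes came from lists of their own. Of 28 other late neutrophil genes tested, none was called in young or old HSCs by edgeR, against 0.993% and 3.66% of all genes tested. In young and old HSCs 25 and 28 of them lay below 0. Their median log2 was -0.64 and -0.99, against -0.01 and -0.08 for all genes. Their r with Ngp ran from 0.13 (Padi4) to 0.99 (Chil3), so their signs are no separate support for those of the members. Chil3 was at -0.98 ± 1.20 (SE) in old HSCs, and the phospholipid-binding Anxa1 at -1.25 ± 0.79. Of 11 other early granule genes tested, all lay below 0 in both contrasts. Their r with Elane ran from 0.24 (Srgn) to 0.99 (Ms4a3), so here too the signs are no separate support. In old HSCs 1 was called, against 3.66% of all genes tested. It was Ctsc, cathepsin C, which activates the granule proteases. Ctsc fell in old MMP high HSCs from 211 ± 41.9 to 94.6 ± 19.96 CPM (SD, n = 3 each; log2 -1.21 ± 0.20, edgeR adjusted p = 0.00386). Ctsc had r = 0.15 with Ngp and 0.26 with Elane over the 13 libraries.

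Regulators and receptors of granulocyte development were listed too. Of 12 transcription factors of granulopoiesis, Cebpb (log2 -1.34 ± 0.35, edgeR adjusted p = 0.0474) and Id2 (-1.69 ± 0.37, 0.0211) fell in old MMP high HSCs, and none was called in young HSCs. Of all genes tested, 3.66% were called in old and 0.993% in young HSCs. Cebpb is a C/EBP factor of emergency granulopoiesis and had r = -0.05 with Ngp. Cebpe, the C/EBP factor of late granule genes, ran from 0.878 to 20.3 CPM and had r = 0.87 with Ngp and 0.86 with Elane. Cebpd ran from 5.81 to 78.9 CPM and had r = 0.83 with Ngp and 0.90 with Elane, over the same 13 libraries and with no test. Over the 12 factors r with Ngp ran from -0.39 (Egr1) to 0.87 (Cebpe). The sum of the 12 had r = -0.21 with Ngp and 0.005 with Elane (permutation test adjusted p = 0.550 and 0.986). Of 8 growth factor receptors, Csf3r, the G-CSF receptor, fell in old MMP high HSCs from 221 ± 57.5 to 120.9 ± 20.8 CPM (SD, n = 3 each; log2 -0.93 ± 0.24, edgeR adjusted p = 0.0445). Spi1, which encodes PU.1, was at -0.28 ± 0.29 in the same contrast.

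The age comparisons share these libraries with the MMP comparisons. In MMP low HSCs no member passed, against 0.175% of genes tested (30 genes; edgeR adjusted p under 0.05), and 7 members lay above 0 and 3 below. Ngp had a log2 fold change of -0.12 ± 1.13 and Elane 0.01 ± 1.17 (SE; edgeR adjusted p = 0.9996 for both). Prtn3 was higher in 2 of 3 old libraries than in any young one, at 0.65 ± 0.34 (SE; edgeR adjusted p = 0.746). No member's age groups in MMP low HSCs were free of overlap, against 11.6% of all genes.

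In MMP high HSCs no member passed, against 0.146% of genes tested (25 genes; edgeR adjusted p under 0.05), and 3 members lay above 0 and 7 below. Ngp was at -0.14 ± 1.06, Elane at -0.18 ± 1.10 and Prtn3 at 0.14 ± 0.32 (SE; edgeR adjusted p = 0.990, 0.987 and 0.952). Without a filter on low counts 1 member, S100a9, was called by edgeR in this contrast, as were 0.589% of genes. None of the members had old and young MMP high groups without overlap, against 11.7% of all genes. The MMP difference in old HSCs minus that in young HSCs was also tested, and 0.0% of genes and no member passed by edgeR. At an unadjusted p under 0.05 there were 693 genes and no member, and DESeq2 called 2 genes.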

How the data were processed

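The data are RNA-seq counts of 13 libraries of sorted HSCs. The authors deposited 1 file of raw counts per gene symbol for each library, and these whole numbers were used as deposited. Per the submitters' processing notes, Trim Galore, STAR 2.7 and the build GRCm38 were used. How reads were counted, and whether strand was used, is not given in the sources used here. Libraries were made with Nextera XT in volumes reduced 20-fold, per the labels' protocols.

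Counts were analysed in R 4.3.3 with edgeR 4.0.16 (filterByExpr with minimum count 10 and minimum total 15, TMM, robust glmQLFit and glmQLFTest, 1 fit of 4 group means, 9 residual degrees of freedom, two-sided). Benjamini-Hochberg adjustment ran over 17125 genes, with calls at 0.05. Errors of log2 fold changes are SE. CPM are shares of all counts, and log2 CPM carry a prior count of 2. Correlations used 100000 permutations (Python 3.11.15, scipy 1.17.1). Ngp and Elane stand for the late and early members in relations to other measures, in place of sums over members. Alternatives were DESeq2 1.42.0, its size factors, no filter, replicate blocks, the library name series as covariate, only the libraries compared, and leaving out libraries. The fit was tested on simulated counts in the old MMP contrast, with 200 genes changed. It recovered 10.4% of changes of log2 size 1 and 57.4% of changes of log2 size 2, and called 2 unchanged genes. A member that was not called is thus not shown to be unchanged. No set test was run.

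Pairing was checked from residual correlations. Old MMP low and high libraries of 1 number gave 0.291, 0.271 and 0.136, and young ones -0.03, -0.15 and -0.23. Neighbouring library names form the same old pairs, and their young pairs gave 0.0822, 0.187 and 0.243. The old numbers thus met a criterion of every correlation over 0.1. No other old pairs were compared, so this does not show that partners share a source. The main fit has no block, blocked values are given where they change a call, and whether partners share an animal is not given.

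The members, lists, doubted libraries and tests were chosen with earlier results of these data known. Genes named are the members, called genes of the granule, regulator and receptor lists, some of the most abundant list genes, and the 8 genes most like Ngp and Elane. Called genes of the marker lists of other cells and of the HSC list are not all named. Among them is Cd74 of the B cell list, lower in MMP high HSCs. Its log2 fold change was -1.71 in young (edgeR adjusted p = 0.0362) and -2.43 in old HSCs (edgeR adjusted p = 0.0036). Cebpe, Cebpd, Egr1, Padi4, Spi1, Srgn, Cd74, the marker genes given with an r and those listed as at 0 in some libraries were picked after their values were seen.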

Additional observations from a re-analysis of the deposited data

How the results depend on the processing

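Without a filter on low counts edgeR called 5 members in the young MMP contrast, 10 in the old one and 1 in the age contrast of MMP high HSCs, against 0 with the filter, and 756 and 1190 of 35834 genes in the MMP contrasts; the cause was not tested. Prtn3 made up the count of 1 member called in the old MMP contrast under DESeq2, the library name series as covariate, only the libraries compared, no doubted libraries, and the replicate block by neighbouring names (chosen after seeing the data); these settings called 828 to 1330 genes in all, against 627. The replicate block by number called 0 members in every contrast, and leaving out 1 library gave 0 to 1 in the old MMP contrast (1 without Young MMP low 1). DESeq2 called 796 genes in young and 1330 in old HSCs in the MMP contrasts and 197 and 154 in the age contrasts. Without the doubted libraries the young MMP log2 fold change was 0.0329 for Ngp, 0.64 for Camp, 0.67 for Lcn2, 1.47 for S100a8, 1.12 for S100a9, 0.16 for Lyz2 and 0.18 for Elane. It was 0.41 for S100a8 and 0.0856 for S100a9 with the replicate block by number, and 0.30 and 0.0941 with the series covariate. In the age contrast of MMP low HSCs, Ngp was at 0.47 without the doubted libraries, and Elane at -0.00783 without the filter and -0.0873 with the replicate block. In that of MMP high HSCs, Prtn3 was at -0.0774 with the replicate block and -0.0497 without the doubted libraries. Leaving out 1 library gave young MMP values from -1.49 to 0.26 for Camp, -1.37 to 0.27 for Lcn2, -0.91 to 1.08 for S100a8 and -1.20 to 0.73 for S100a9, the upper ends all without Young MMP low 1. The age values ranged from -0.86 to 0.47 (Ngp) and -0.55 to 0.69 (Elane) in MMP low HSCs, and from -0.68 to 0.77 (Ngp), -0.60 to 0.79 (Elane) and -0.0821 to 0.44 (Prtn3) in MMP high HSCs. In the old MMP contrast no member changed sign under the alternatives run. The mean early share of young MMP low HSCs was 0.660% in the smaller series, which holds 1 such library. The log2 ratio of late to early counts in old MMP high HSCs was 2.05 without Lyz2. Scatter between the 3 or 4 libraries of a group, not depth, was the larger error: the widest counting interval of a member in a library reached 25.7% to either side of its value.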
